A study of Mus musculus with 22 samples.

Results

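Astrocytes and microglia sorted from the cortex of old wild-type (WT) mice were compared across every gene of the expression table. The comparison used 11 of the 22 samples of the series, 4 WT astrocyte samples and 7 WT microglia samples, and 21966 of the 22485 genes with a probe could be tested. All WT animals were C57BL/6 littermates of APPswe/PS1dE9 mice, a model of amyloid deposition, and were 15 to 18 months old; the transgenic samples were not used here. Astrocytes were sorted as GLT1-positive and CD11b-negative cells, and microglia as CD11b- and CD45-positive cells, after perfusion, papain digestion of the cortex at 37C, myelin removal and exclusion of dead cells; cells positive for O4, an oligodendrocyte lineage antigen, were left out of the astrocyte sort. Values are single-channel log2 intensities of 2-colour Agilent arrays as the authors deposited them, so a difference of 1 is a 2-fold difference.

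Astrocytes arise from the neuroectoderm. They clear glutamate and potassium from the extracellular space, couple to each other through gap junctions, store glycogen and supply lipids and metabolites to neurons. Microglia descend from yolk sac macrophages, depend on signalling through the Csf1 receptor, and survey the tissue with purine, complement, Fc and chemokine receptors. Both cell types express most housekeeping genes, so a comparison of the 2 shows which regulators, receptors, secreted factors and enzymes each population carried more of.

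Of the 21966 genes tested, 11418 differed between WT astrocytes and WT microglia at an adjusted p under 0.05, which is 52.0% of all genes (limma, Benjamini-Hochberg adjustment over all genes tested). The share higher in astrocytes was 34.8%, or 7649 genes, and the share higher in microglia was 17.2%, or 3769 genes. Of the calls 67% were thus higher in astrocytes, against 55.5% after renormalization on shared probes, 72.6% with microglia of slide 1 only and 56.1% with microglia of slide 2 only. Differences of more than 4-fold were found for 3146 genes higher in astrocytes, 14.3% of those tested, and for 1193 genes higher in microglia, 5.43%. These percentages are the background against which the lists of genes below are read, and a count near them is no result about a list. The lists were chosen with earlier results of these data known, and several are named for a cell type. A count far from the background thus describes a list and is no independent test of it.

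**Figure D1:**
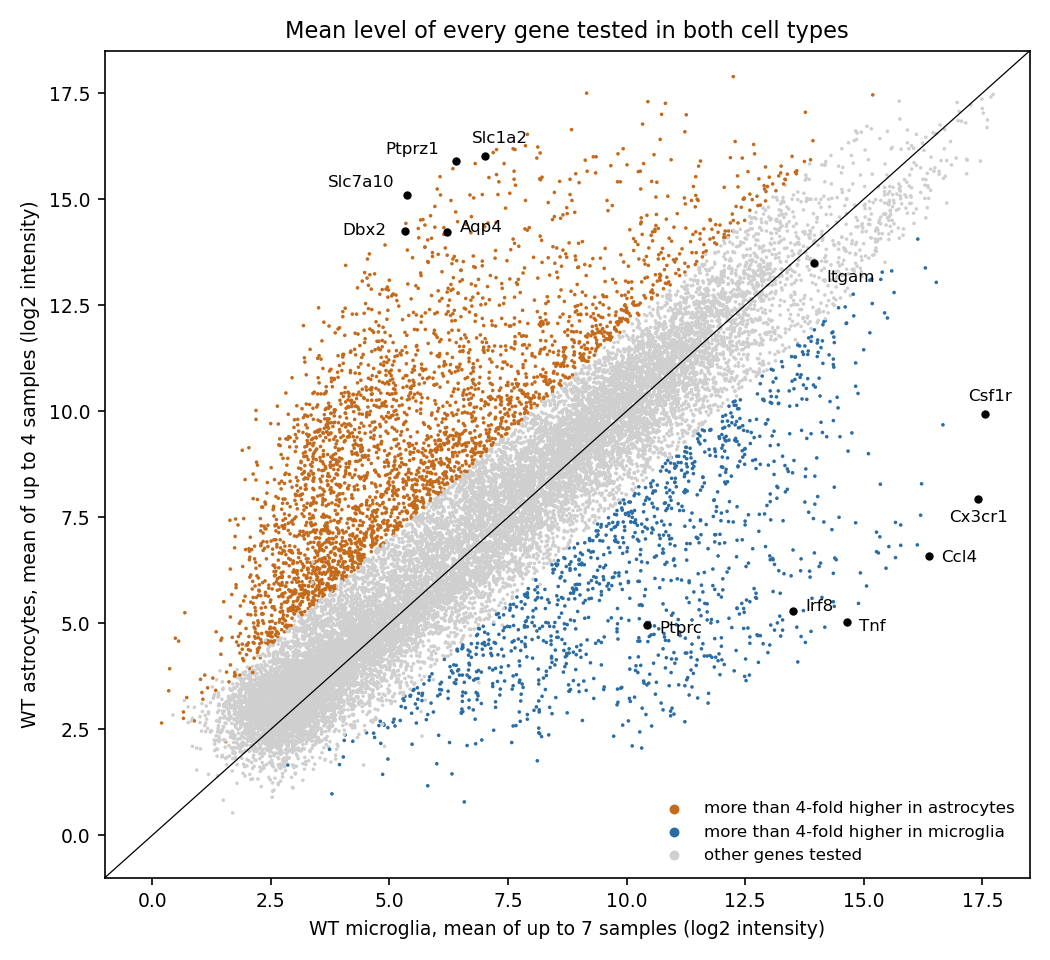
Mean log2 intensity of each of the 21966 genes tested, with WT microglia on the horizontal axis and WT astrocytes on the vertical axis; the line marks equal levels. The 3146 genes more than 4-fold higher in astrocytes lie above the line and the 1193 genes more than 4-fold higher in microglia below it, and Itgam, shown by its brightest probe, lies near the line.

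All 4 astrocyte samples were on slide 3, and the microglia samples were on slides 1 and 2, so cell type and slide cannot be told apart. Within microglia, where slides can be compared, 4421 of 19272 genes (22.9%) differed between slide 2 (3 samples) and slide 1 (4 samples), with a median difference of 0.45. That median fell to 0.03, and the genes called to 859 (4.46%), when the columns were renormalized on the 30044 probes measured in all 11 samples, a setting chosen after the data were seen. The count of 4421 was 0 without microglia replicate 1, 3, 6 or 7, with 4710 to 6320 genes at an unadjusted p under 0.05, 2650 without replicate 5 and 6855 without replicate 2 (limma). Slide 1 microglia had 6159 to 10975 blank probes of 43020, slide 2 microglia 2249 to 3046 and astrocytes 151 to 593, and column medians over the measured probes were level at 6.24 to 6.26. Renormalized in this way, the comparison of cell types gave 7141 genes higher in astrocytes (32.5%) and 5715 higher in microglia (26.0%), the median of all differences moved from 0.35 to 0.13, and 10692 genes were called in the same direction in both fits against 0 in opposite directions. With slide as a random block 6602 genes (30.1%) were called, including 2880 of the 3146 genes more than 4-fold higher in astrocytes and 1119 of the 1193 more than 4-fold higher in microglia. Of the genes named below, 31 that passed the test were not called with slide as a random block, most of them with differences under 1.5 on the log2 scale. Of the 4339 genes differing more than 4-fold as deposited, 4334 were called in the same direction after renormalization. The renormalized fit had 4135 genes in all that differed more than 4-fold.

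The sorting antigens and marker genes were read first, because they check the labels. Slc1a2, which encodes the GLT1 glutamate transporter used to sort astrocytes, read 16.08, 16.20, 16.11 and 15.70 in the 4 astrocyte samples and 6.08 to 7.70 (median 7.01) in the 7 microglia samples, a difference of 9.05 ± 0.27 (SE; adjusted p = 5.49e-10). Ptprc, which encodes CD45, read 4.64, 5.12, 5.01 and 5.05 in astrocytes and 9.15 to 11.05 (median 10.64) in microglia, a difference of -5.44 ± 0.29 (adjusted p = 2.93e-08). In both genes every astrocyte sample was separated from every microglia sample by more than 4 log2 units.

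Itgam, which encodes CD11b, gave different answers by probe. Its brightest probe, the one used by the rule for choosing probes, read 13.50 ± 0.70 (SD, n = 4) in astrocytes and 13.95 ± 0.15 (SD, n = 7) in microglia, a difference of -0.45 ± 0.27 that did not pass the test (adjusted p = 0.188). The other 2 probes of the gene gave differences of -5.45 and -5.57. Siglech, a microglial lectin, showed the same split, with -0.68 at its brightest probe, a call lost with slide as a random block, and -9.21 at the other. Among the 5949 genes with at least 2 tested probes, 145 had probes called in opposite directions, and 5 of these beyond 4-fold each way. Of the genes named below, Kdr and Grm5 are among the 145 and Srebf2 among the 5. Kdr, a VEGF receptor, was -0.96 at its brightest probe and between 3.60 and 4.07 at 10 others. Grm5 was -0.82 at its brightest probe and 1.14 and 1.40 at its others. Srebf2, the sterol-responsive transcription factor, was -2.63 at its brightest probe and 3.03 at its other probe. The size of a difference also depended on the probe, and 29 named genes had probes more than 1.5 apart on the log2 scale.

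All 16 astrocyte markers were higher in astrocytes, with a median difference of 8.00, and 15 of 16 microglia markers were higher in microglia, with a median of -8.37, Itgam being the exception. The summed level of the astrocyte markers lay between 19.41 and 19.59 on the log2 scale in astrocytes and between 13.95 and 14.62 in microglia. Aldh1l1, a folate enzyme used as a pan-astrocyte marker, differed by 7.32 ± 0.20, and Aqp4, the water channel of astrocyte endfeet, by 8.02 ± 0.33. Glul, glutamine synthetase, was bright in both populations and differed by 2.44 ± 0.17, with 16.24 to 16.50 in astrocytes and 13.55 to 14.19 in microglia. Gfap, the intermediate filament of reactive astrocytes, read 7.43 to 7.89 in astrocytes and 4.96 to 6.04 in microglia, and its 3 probes differed by 2.07, 2.93 and 5.12. The summed level of the microglia markers was 19.71 to 19.93 in microglia and 14.90 to 15.84 in astrocytes. The astrocyte sum was highest in replicate 3, where the brightest probes of Siglech and Itgam read 15.07 and 14.46 and made up most of it. Their other probes had astrocyte means of 5.18 for Siglech and 3.87 and 6.60 for Itgam. The median level of the list was 6.36 to 7.89 in astrocytes and 15.05 to 15.62 in microglia. Single microglial genes were highest in astrocyte replicate 4: Csf1r read 9.89, 9.21, 9.68 and 10.98 in the 4 astrocyte samples, and Cx3cr1 8.56, 6.72, 6.89 and 9.59.

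**Figure D2:**
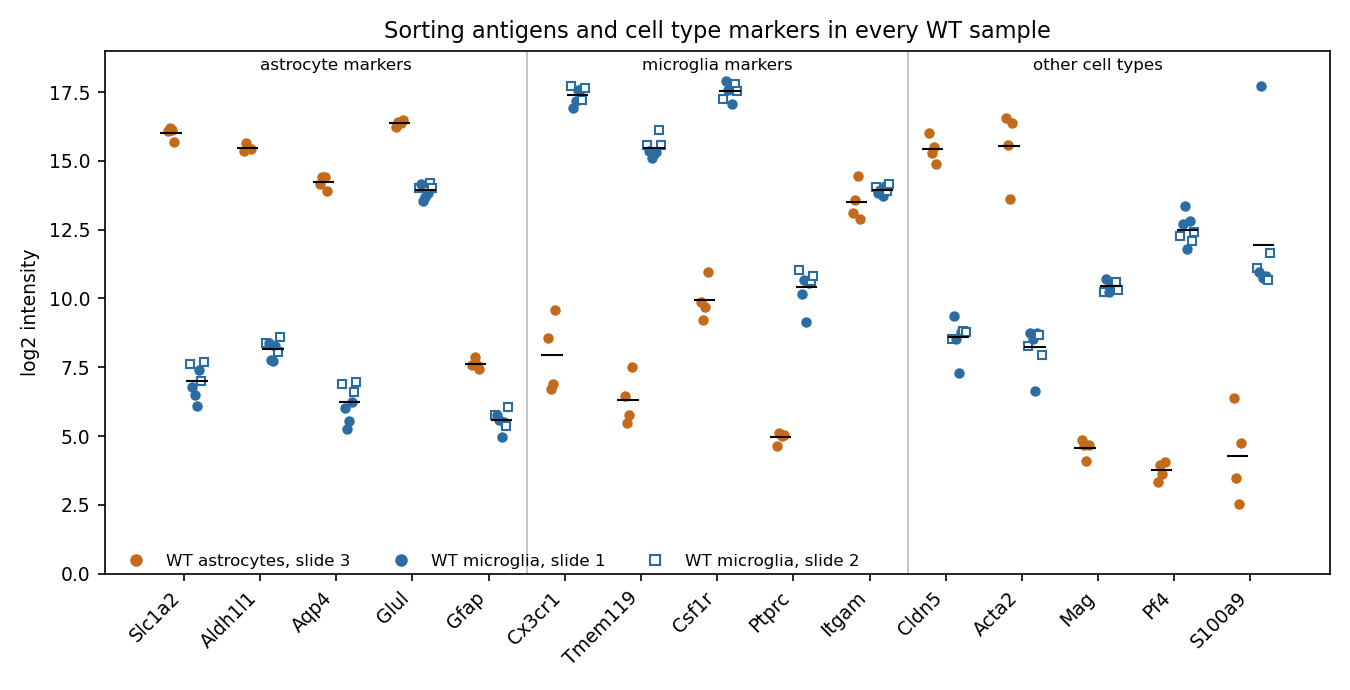
Log2 intensity of sorting antigens, cell type markers and markers of other cell types in each WT sample; horizontal bars are group means, and open squares are microglia of slide 2. Slc1a2 separates the groups completely, Itgam by its brightest probe does not, and S100a9 reads 17.72 in 1 microglia sample against 10.68 to 11.65 in the other 6.

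Markers of other cell types differed between the sorts too. Of 11 endothelial markers, 10 were higher in astrocytes, among them Cldn5, a tight junction protein of endothelium (6.85 ± 0.35), and Flt1, a VEGF receptor (6.67 ± 0.36), and Kdr was the exception noted above. Their summed level was 17.00 to 18.07 in astrocytes and 11.88 to 13.54 in microglia. All 9 mural markers were higher in astrocytes, including Acta2, the smooth muscle actin, which read 16.54, 15.57, 13.62 and 16.36 in the 4 astrocyte samples and 6.63 to 8.74 in microglia, and Pdgfrb, the pericyte PDGF receptor (6.89 ± 0.42). The mural sum ranged from 14.96 to 17.72 in astrocytes, lowest in replicate 3, and from 9.05 to 10.72 in microglia. None of the endothelial or mural markers had a mean below 5 in astrocytes.

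Of the 8 oligodendrocyte precursor markers tested, 5 were higher in astrocytes, Sox8 (5.54 ± 0.46), Olig2 (4.73 ± 0.23), Olig1 (4.67), Cspg4 and Pdgfra (1.42), with a sum of 12.37 to 13.12 against 8.18 to 9.43. Mature oligodendrocyte genes went the other way: 6 of 10 were higher in microglia, Mag, a myelin glycoprotein, with a difference of -5.88 and Mbp, myelin basic protein, with -5.39 at its brightest probe, while Cnp was higher in astrocytes by 0.90. Of 12 perivascular macrophage and monocyte markers 11 were higher in microglia, including Pf4 (-8.72 ± 0.28) and Mrc1, the mannose receptor (-7.67 ± 0.32), and all 12 had a mean below 5 in astrocytes. Their sum ranged from 13.42 to 18.42 in microglia, against 7.25 to 8.11 in astrocytes, the top of the range coming from microglia replicate 3, where the neutrophil and monocyte genes S100a8 and S100a9 read 16.47 and 17.72. Without that sample S100a9 differed by -6.71 and S100a8 by -5.26, and S100a8 was not called with slide as a random block (adjusted p = 0.0948).

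Neuronal genes were split. Of 16 neuron markers 8 were higher in astrocytes, led by Map2 (5.50 ± 0.44), 2 were higher in microglia, Camk2a (-0.80) and Syp (-0.78), and 6 were not called; Snap25, a synaptic protein, read 12.80 ± 0.74 in astrocytes and 12.52 ± 0.27 in microglia. Of 8 lymphocyte genes 5 were higher in microglia, Cd79b (-6.75 ± 0.31), Cd3d (-2.73), Nkg7 (-2.06), Cd3g (-1.52) and Cd3e (-0.97), and 1 in astrocytes, Cd79a (1.10). With slide as a random block 5 of the 16 neuron markers were called, all higher in astrocytes, and Camk2a, Syp, Cd3d, Cd3e, Cd3g and Cd79a, and Cnp and Pdgfra above, were not called. Of 7 ependymal genes 6 were higher in astrocytes, 3 of them also called with slide as a random block, and of 4 erythroid genes Alas2 was (1.52, not called with slide as a random block), while Hba-a1, a haemoglobin chain, varied between 5.46 and 11.76 among microglia samples. In sorted bulk samples, fewer cells of a type and less RNA per cell cannot be told apart, and the part of these other cell types in the differences reported below was not tested.

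Sex-linked genes separated samples within microglia. Xist, transcribed from the inactive X chromosome, read 11.77 to 12.82 in all 4 astrocyte samples; in microglia it read 9.63, 7.89, 7.03 and 9.84 in replicates 1, 2, 4 and 7 and was blank in replicates 3, 5 and 6. The Y-linked gene Eif2s3y read 10.03, 10.15 and 10.04 in those 3 microglia samples, 1.43 to 4.47 in the other 4, and 3.76 to 4.58 in astrocytes. The sex of the animals is not given in the sources used here, and its part in the comparison was not tested beyond these values.

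Immediate early and stress genes, which tissue dissociation is known to induce, were higher in microglia in 20 of 23 cases, with a median difference of -3.08. Dusp2, a MAP kinase phosphatase, differed by -8.55 ± 0.29, the transcription factors Atf3 by -6.07 ± 0.39 and Egr2 by -5.81 ± 0.53, and Zfp36, an mRNA decay factor, by -5.97 ± 0.28. Hspb1, a small heat shock protein, was the only member higher in astrocytes (3.92 ± 0.25). The summed level of the list was 18.20 to 18.69 in microglia and 16.09 to 17.18 in astrocytes, and several of the cytokine genes described below moved in the same direction; the part of dissociation in them was not tested.

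The genes with the largest differences outlined each population. The 12 largest each way were drawn only from called genes without overlap between the groups, so their lack of overlap is no result. On the astrocyte side they ran from 9.75 to 9.05: Slc7a10, Ptprz1, Grin2c, Gjb6, Kcnk1, Dclk1, Ppp1r3g, Entpd2, Fzd2, Fgfr3, Slc1a2 and Fam20a. Slc7a10, a serine and small neutral amino acid exchanger, read 14.80, 15.23, 15.47 and 14.91 in astrocytes and 3.75 to 6.63 (median 5.76) in microglia. Grin2c, an NMDA receptor subunit, read 15.15, 15.70, 15.48 and 15.81 in astrocytes and 4.42 to 7.54 (median 6.30) in microglia, and Gjb6, a gap junction protein, 15.54 to 15.92 and 4.81 to 7.60. The remaining genes include a potassium channel (Kcnk1), an enzyme that splits extracellular ATP (Entpd2), a regulatory subunit that targets protein phosphatase to glycogen (Ppp1r3g), and receptors for pleiotrophin (Ptprz1), Wnt (Fzd2) and fibroblast growth factor (Fgfr3).

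On the microglia side the 12 largest ran from -9.77 to -9.06: Ccl4, Tnf, Rgs1, Cx3cr1, Slc2a5, Selplg, Blnk, Cd300c2, Aif1, Tmem119, Ly86 and Gpr84. Ccl4, a chemokine, read 7.59, 5.97, 4.44 and 8.36 in astrocytes and 16.09 to 16.67 (median 16.40) in microglia, and Tnf, the inflammatory cytokine, 6.27, 4.52, 3.01 and 6.28 against 14.15 to 15.13 (median 14.65). Tmem119, a membrane protein used as a microglia marker, read 6.47, 5.48, 5.75 and 7.50 in astrocytes and 15.10 to 16.12 (median 15.34) in microglia. For all 12 genes astrocyte replicates 1 and 4 stood above replicates 2 and 3, while the microglia samples stayed within about 1 log2 unit of each other. The counts of called genes without overlap over the whole table were 6616 on the astrocyte side (30.1%) and 3011 on the microglia side (13.7%).

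Transcription factors are known to set the identity of both cells. In astrocytes these are factors of the radial glia lineage such as Sox9, Sox2, the NFI family, Hes and Id proteins and the Gli factors of hedgehog signalling. In microglia they are the myeloid factors PU.1 (encoded by Spi1), Irf8, Runx1 and the C/EBP and Maf proteins, together with Sall1. Of 39 astrocyte transcription factor genes tested 37 were higher in astrocytes, with a median difference of 5.25, and of 37 microglia transcription factor genes 31 were higher in microglia, with a median of -2.16; the median over all genes tested was 0.35.

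Dbx2, a homeobox factor, had the largest difference of the astrocyte list and read 14.15, 14.54, 14.10 and 14.24 in astrocytes and 4.27 to 6.45 (median 5.21) in microglia (8.95 ± 0.40, adjusted p = 7.45e-09). Hes5, an effector of Notch signalling, read 15.87, 16.35, 16.27 and 16.18 against 6.47 to 8.13 (median 7.15), a difference of 8.93 ± 0.30. Id4, an inhibitor of basic helix-loop-helix factors, differed by 8.43 ± 0.41 and Sox2, a factor of neural progenitors, by 8.39 ± 0.39. Sox9, chosen after its values were seen, read 12.19 to 12.92 in astrocytes at the probe used. That probe had a value in only 4 of the 7 microglia samples, 3.45 to 5.17. All 10 probes of Sox9 were called higher in astrocytes, by 8.04 to 9.15. No astrocyte sample came near the microglia range in any of these 5 genes.

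The 4 NFI genes, which bind a shared motif and switch on glial genes, were all higher in astrocytes but by very different amounts. Nfib differed by 7.32 ± 0.35, Nfia by 4.33 ± 0.60, Nfix by 1.63 ± 0.16 and Nfic by 0.84 ± 0.22. Nfic read 11.97 to 13.17 in astrocytes and 11.49 to 12.02 in microglia, so the groups overlapped, and it was not called with slide as a random block (adjusted p = 0.209), against microglia of slide 2 only, or as a mean of its 3 probes. Hes1, another Notch effector, went against its list: it read 5.87, 6.22, 5.65 and 5.74 in astrocytes and 7.74 to 9.36 (median 8.43) in microglia, a difference of -2.68 ± 0.29. Glis3 was the 1 member not called, with 5.96 ± 0.31 against 5.68 ± 0.56.

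Irf8, an interferon regulatory factor required for microglia, led the microglia list and read 6.11, 4.97, 4.22 and 5.83 in astrocytes and 13.22 to 13.75 (median 13.59) in microglia (-8.20 ± 0.31, adjusted p = 2.22e-09). Nfatc2, a calcium-regulated factor, differed by -6.78 ± 0.28, Ikzf1, a zinc finger factor of the blood lineage, by -6.73 ± 0.24, and Batf3, an AP-1 family factor, by -6.11 ± 0.16. Spi1 read 3.05, 3.96, 3.37 and 4.40 in astrocytes and 9.07 to 9.63 (median 9.27) in microglia (-5.62 ± 0.25). Runx1 differed by -5.67, Cebpa by -4.81 and Maf by -4.94; Spi1, Runx1 and Cebpa were chosen after their values were seen. The 3 MEF2 genes differed by smaller amounts, -2.07 for Mef2c, -1.53 for Mef2a and -1.05 for Mef2d, and Mef2d was not called with slide as a random block (adjusted p = 0.118).

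The microglia list also held 3 factors that were higher in astrocytes. Nr1h3, the liver X receptor alpha that senses oxysterols, read 9.46 to 9.71 in astrocytes and 5.09 to 6.96 in microglia (3.24 ± 0.31), and its other probe gave 3.08. Bcl6, a zinc finger repressor, differed by 1.69 ± 0.21. Klf2, a factor also known from endothelium, differed by 0.85 ± 0.30 with overlap between the groups, and its call was lost with slide as a random block (adjusted p = 0.398), after renormalization and under several other settings. The SALL genes divided: Sall1, which marks microglia among brain macrophages, was higher in microglia (-2.34, 8.90 to 9.84 against 11.14 to 12.18), Sall2 was higher in astrocytes by 2.86 (11.08 to 11.80 against 7.79 to 9.24), and Sall3 read 8.65 ± 0.29 and 7.99 ± 0.76 and was not called.

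**Figure D3:**
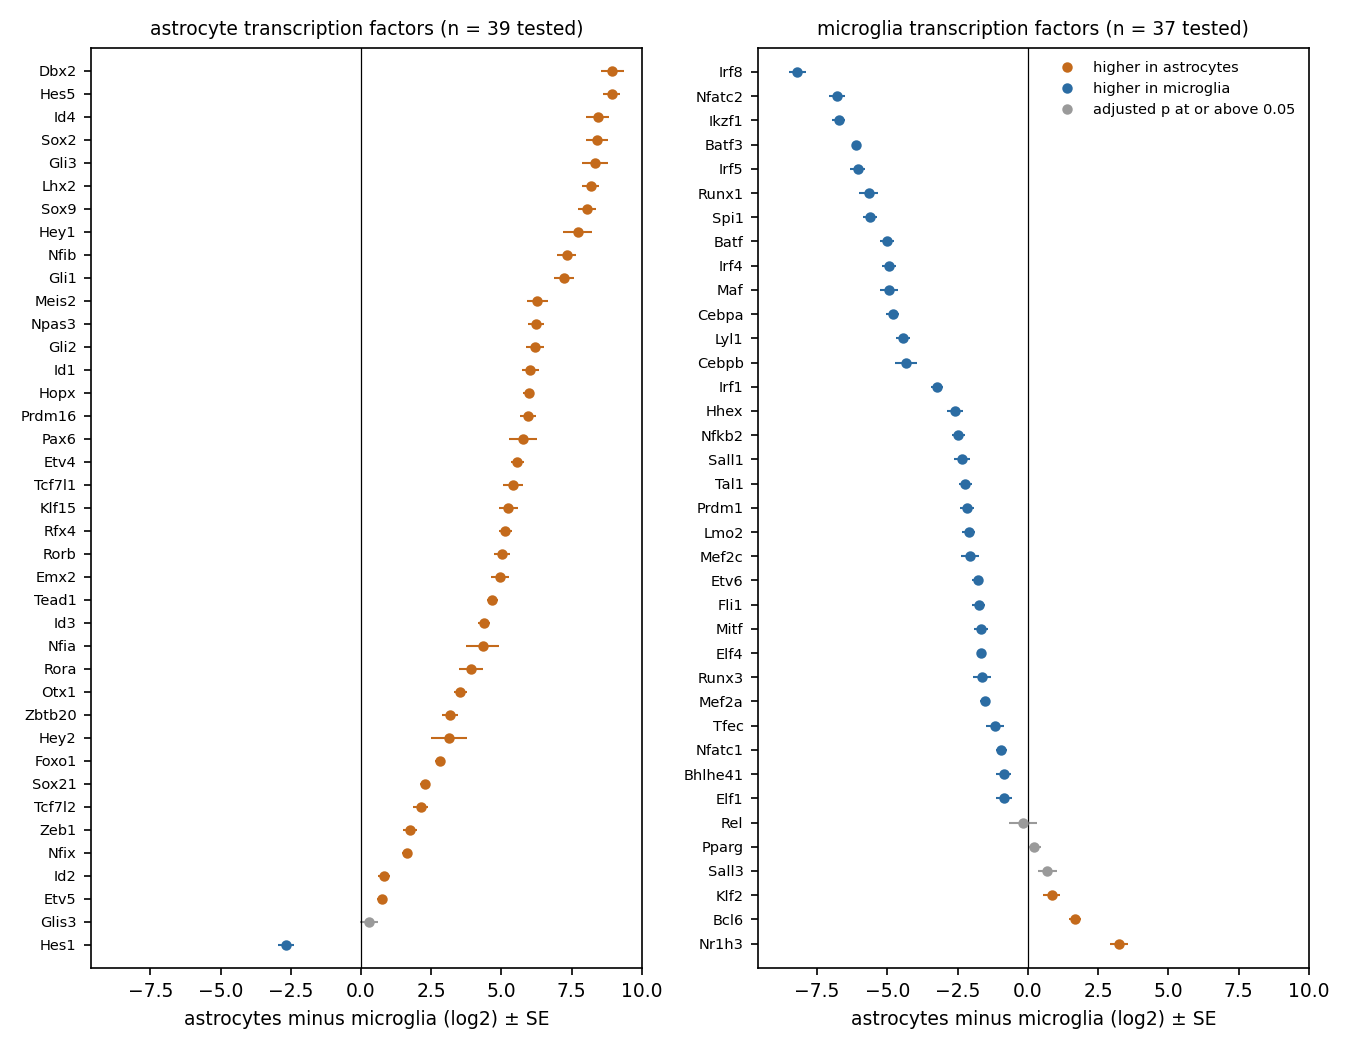
Difference of astrocytes minus microglia on the log2 scale, with its standard error, for the 39 astrocyte and 37 microglia transcription factor genes tested. Hes1 is the only member of the astrocyte list called higher in microglia, and Nr1h3, Bcl6 and Klf2 are the members of the microglia list called higher in astrocytes.

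The promoter windows of the genes with the largest difference in each factor list, Dbx2 and Irf8, are shown because they lead the 2 lists. Each window runs from 250 bases before to 50 bases after the annotated start on the strand of the gene, from RefSeq on GRCm38.p6; Dbx2 lies at chr15:95654722-95655021 on the minus strand and the first of the 2 windows of Irf8 at chr8:120736108-120736407 on the plus strand. Capitals mark matches on either strand to GAGGAAGT (PU.1 type), TGCCAA (NFI type) or ACAAAG (SOX type).
Dbx2: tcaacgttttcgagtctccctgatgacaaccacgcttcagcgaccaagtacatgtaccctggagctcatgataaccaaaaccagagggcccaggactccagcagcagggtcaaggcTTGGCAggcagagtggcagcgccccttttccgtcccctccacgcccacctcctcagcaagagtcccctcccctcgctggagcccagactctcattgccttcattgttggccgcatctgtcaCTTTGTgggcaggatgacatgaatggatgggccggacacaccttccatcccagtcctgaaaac
Irf8: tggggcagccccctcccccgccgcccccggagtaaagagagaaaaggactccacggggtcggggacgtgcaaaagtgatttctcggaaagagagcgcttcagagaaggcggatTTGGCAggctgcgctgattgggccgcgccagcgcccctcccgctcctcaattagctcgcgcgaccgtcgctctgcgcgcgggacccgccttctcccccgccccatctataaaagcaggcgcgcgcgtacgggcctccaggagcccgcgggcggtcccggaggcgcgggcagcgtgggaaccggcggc
The Dbx2 window held 1 NFI type and 1 SOX type match, and the Irf8 window held 1 NFI type match. These matches are of short words and are descriptions of the sequence only.

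Across promoter windows the shares of the PU.1 type word were farthest apart, as a ratio, between the 2 gene sets. It was found in 93 of 1121 windows (8.30%) of genes more than 4-fold higher in microglia, in 59 of 3189 windows (1.85%) of genes more than 4-fold higher in astrocytes, in 2.95% of the 20471 windows of all genes tested and in 3.20% of all 32851 windows in the table. Counted by gene, 88 of 873 microglia-high genes with a window (10.1%) had at least 1 match, against 56 of 2405 astrocyte-high genes (2.33%). The NFI type word was found in 14.3% of astrocyte-high and 12.1% of microglia-high windows against 13% of windows of all genes tested, and the SOX type word in 15.7%, 18.2% and 16.8%. No test was made of these shares. Of the 16 microglia markers in the table, only C1qc, a complement chain gene, and Ctss, the cathepsin S gene, had a PU.1 type match in a window. How many of the 16 have a window is not given here. The windows of C1qc and Ctss are shown because they hold that word, so they do not stand for the list. C1qc lies at chr4:136892865-136893164 on the minus strand and Ctss at chr3:95526536-95526835 on the plus strand, with capitals as above.
C1qc: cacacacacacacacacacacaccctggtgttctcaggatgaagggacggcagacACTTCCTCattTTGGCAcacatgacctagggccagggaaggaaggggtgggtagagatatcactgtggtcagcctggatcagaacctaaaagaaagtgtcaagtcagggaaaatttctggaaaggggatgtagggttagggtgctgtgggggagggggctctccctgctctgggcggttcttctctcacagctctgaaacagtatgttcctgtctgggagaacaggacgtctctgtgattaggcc
Ctss: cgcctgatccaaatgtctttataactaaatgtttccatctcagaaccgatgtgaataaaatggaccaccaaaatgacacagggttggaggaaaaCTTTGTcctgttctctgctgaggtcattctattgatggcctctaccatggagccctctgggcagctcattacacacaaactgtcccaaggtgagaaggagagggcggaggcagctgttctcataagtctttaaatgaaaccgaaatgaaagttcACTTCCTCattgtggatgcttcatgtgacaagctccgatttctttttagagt
In both windows the match to the PU.1 type word reads ACTTCCTC, its reverse complement. C1qc differed by -8.66 ± 0.36 and Ctss by -7.95 ± 0.43 between the cell types.

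Receptors followed the cell type in most cases. Of 56 microglia receptor genes 51 were higher in microglia (median difference -6.21), and of 56 astrocyte receptor genes 50 were higher in astrocytes (median 4.95). Cx3cr1, the fractalkine receptor, read 16.92 to 17.73 (median 17.57) in microglia, and in 4 samples came within 0.5 of the table's top value, so its difference of -9.47 ± 0.49 may be limited at the top of the scale. The P-selectin ligand Selplg differed by -9.32 and the high-affinity Fc receptor Fcgr1 by -8.86. The ADP receptor P2ry13 read 3.78 to 5.95 in astrocytes and 13.31 to 14.23 in microglia. Fcgr1 read 4.17, 3.48, 3.53 and 3.42 in astrocytes and 12.20 to 12.83 in microglia. Tgfbr1 and Tgfbr2, the subunits of the TGF-beta receptor, differed by -5.15 ± 0.28 and -2.04 ± 0.27, and Tgfbr2 was well measured in both cells, at 11.11 to 12.15 in astrocytes and 13.10 to 14.08 in microglia.

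The P2Y purine receptors split by member. P2ry12, the ADP receptor of surveying microglia, read 7.44, 7.38, 6.93 and 7.81 in astrocytes and 13.45 to 14.77 (median 14.27) in microglia (-6.75 ± 0.27), and P2ry6, a UDP receptor, differed by -8.07 ± 0.19. P2ry1, an ADP receptor of astrocytes, was higher in astrocytes by 4.16 ± 0.28, with values in only 3 microglia samples, and P2ry14, a UDP-glucose receptor, by 3.95 ± 0.58. P2ry14 read 9.21, 8.31, 6.84 and 10.07 in astrocytes, the order of the mural sum (17.61, 15.86, 14.96 and 17.72), whose part was not tested.

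The TAM receptors, which bind dying cells through bridging ligands, were all higher in astrocytes. Tyro3 differed by 4.17 ± 0.41 at its brightest probe and 1.36 at the other, Axl by 2.32 ± 0.29, and Mertk, listed with the microglia receptors, by 0.85 ± 0.25. Mertk read 12.87 to 14.01 in astrocytes and 11.76 to 13.04 in microglia and was not called with slide as a random block (adjusted p = 0.216) or against microglia of slide 2 only. Csf3r, the G-CSF receptor, was the other microglia receptor gene higher in astrocytes, at 16.01 to 16.32 against 14.52 to 15.37. It had 1 tested probe, bright in both cell types, so a split between probes like that of Itgam and Siglech could not be checked.

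On the astrocyte side Ptprz1, the receptor of pleiotrophin, read 15.72, 15.99, 16.15 and 15.79 and 4.92 to 7.68 (median 6.64) in microglia (9.54 ± 0.45). Fgfr3 differed by 9.06 ± 0.49 and Fgfr1 by 6.59 ± 0.36 at its brightest probe and 0.66 and 5.25 at the others. Ntrk2, the BDNF receptor, differed by 7.83 ± 0.23 at its brightest probe and by 2.64 to 8.02 over its 11 others, Egfr, the EGF receptor, by 6.86 ± 0.31, Osmr, the oncostatin M receptor, by 6.19 ± 0.31 and Cntfr, the CNTF receptor, by 6.97 ± 0.43. The 3 members of the list higher in microglia were Il18r1 (-1.37), Il6st, the shared receptor subunit of the IL-6 family (-0.87), and Grm5, a metabotropic glutamate receptor (-0.82). Each overlapped between the groups and none was called with slide as a random block, and the other 2 probes of Grm5 gave 1.14 and 1.40.

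Secreted factors were less uniform. Of 58 astrocyte ligand and secreted factor genes 44 were higher in astrocytes and 6 in microglia (median difference 3.73), and of 39 microglia ones 28 were higher in microglia and 5 in astrocytes (median -4.78). Ndp, norrin, a ligand of Frizzled receptors, differed by 8.93 ± 0.55, the granule protein Scg3 by 8.60 ± 0.30, the chemokine Cxcl14 by 8.09 ± 0.21 and Ptn, pleiotrophin, by 8.04 ± 0.23. Cxcl14 read 15.18, 15.49, 15.57 and 15.39 in astrocytes and 6.84 to 7.87 in microglia. Apoe, the lipid carrier, read 17.62, 17.37 and 17.38 in 3 astrocyte samples, near the top of the scale, and was blank in replicate 1; it read 13.73 to 15.80 in 6 microglia samples and was blank in the seventh. The difference of 2.53 ± 0.35 at this probe compares with 2.45 to 3.09 over the other 9 probes of Apoe, all called higher in astrocytes.

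On the microglia side Ccl4 and Tnf were followed by the complement chain C1qa, which read 7.68, 6.00, 5.70 and 7.97 in astrocytes and 15.60 to 15.97 in microglia (-8.95 ± 0.40). Il1b, the interleukin, differed by -8.20 ± 0.44, the chemokine Ccl2 by -6.83 ± 0.31 and the cytokine Il6 by -5.14 ± 0.26. These cytokine and chemokine genes share the direction of the immediate early genes given above.

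Members against the direction of their list were few but included factors with clear differences. Hgf, hepatocyte growth factor, read 8.23, 8.49, 8.83 and 7.88 in astrocytes and 3.58 to 4.05 in the 5 microglia samples with a value (4.56 ± 0.24). The semaphorins Sema4a and Sema4b were higher in astrocytes by 3.85 ± 0.23 and 3.83 ± 0.20, the EGF receptor ligand Hbegf by 2.78 ± 0.22, and Nampt, an enzyme of NAD synthesis, by 0.76 ± 0.24 with overlap, a call lost with slide as a random block. On the astrocyte list Pros1, protein S, differed by -1.66 ± 0.31, and Sparc, a matrix protein, by -1.53 ± 0.16 at its brightest probe and -4.61 at the other. Sparc read 17.24 to 17.61 in microglia, and 5 samples came within 0.5 of the table's top value.

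Ligands and receptors were then set side by side. Of 45 listed pairs 40 could be tested for both genes. In 9 pairs the ligand gene was higher in astrocytes and the receptor gene in microglia, in 6 the ligand was higher in microglia and the receptor in astrocytes, in 11 both were higher in astrocytes and in 6 both in microglia. With slide as a random block both genes were called in 5 of the 9, 4 of the 6, 8 of the 11 and 5 of the last 6. The 4 lost from the first group are Vegfa and Kdr, whose other Kdr probes point the other way, Il18 and Il18r1, Cxcl12 and Cxcr4, and Hgf and its receptor gene, and the 2 lost from the second are Igf1 and Igf1r and Pros1 and Mertk. Some pairs share a gene, and a shift of a transcript says nothing of the protein or of contact between cells.

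Among pairs with an astrocyte ligand and a microglia receptor, Cx3cl1, fractalkine, read 11.47, 10.81, 11.14 and 10.98 in astrocytes and 5.37 to 6.93 (median 6.57) in microglia, a difference of 4.79 ± 0.29 against -9.47 for Cx3cr1. Cd200, a restraining ligand of myeloid cells, differed by 6.39 ± 0.51 and its receptor Cd200r1 by -4.65 ± 0.44. Cd200 is also an endothelial gene, and it read 11.06, 9.72, 9.57 and 11.39 in the 4 astrocyte samples. In these samples the endothelial sum was 18.07, 17.38, 17.44 and 17.00 and the mural sum 17.61, 15.86, 14.96 and 17.72. The part of endothelial or mural cells in Cd200 was not tested. Cxcl12 differed by 6.72 ± 0.42, its receptor Cxcr4 by -2.50 ± 0.49 and its scavenger receptor Ackr3 by 5.56 ± 0.60; Cxcr4 was not called with slide as a random block (adjusted p = 0.111). Il18 was higher in astrocytes by 3.69 ± 0.24 and Tgfb2 by 6.68 ± 0.31.

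The 2 ligands of Csf1r went in opposite directions. Il34 was higher in astrocytes by 3.77 ± 0.59, reading 9.58, 8.16, 7.44 and 10.67 there and 4.21 to 5.91 in microglia, and the order of the astrocyte samples, lowest in replicate 3, was that of the mural sum, whose part was not tested. Csf1 read 10.46 to 11.12 in astrocytes and 11.37 to 12.92 in microglia (-1.29 ± 0.28), and differed by -3.86 to -1.25 over its other 11 probes, but it was not called with slide as a random block (adjusted p = 0.142). Csf1r itself read 17.05 to 17.89 in microglia, and 5 samples came within 0.5 of the table's top value, so its difference of -7.65 ± 0.25 may be limited there too.

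The TGF-beta ligands were divided between the cells. Tgfb1 read 7.41, 6.97, 6.82 and 7.15 in astrocytes and 11.35 to 11.77 in microglia (-4.48 ± 0.17), while Tgfb2 read 11.60, 11.35, 11.58 and 11.56 against 3.85 to 5.49. Tgfb3 was higher in astrocytes by 4.41 ± 0.48, with a wide spread of 8.51 to 11.01. Of the 137 named genes higher in astrocytes and measured in all 4 samples, 12 had the sample order of the mural sum, and 7 of these spread over more than 1 log2 unit: P2ry14, Il34, Ackr3, Tgfb3, Cd200, Il1r1 and Slc2a4. Genes can share an order of 4 samples by chance, and the share of all genes with this order was not counted. The 12 are thus no result about mural cells, whose part was not tested. Each group of Tgfb1 and Tgfb2 values stayed within 2 log2 units and the cell types did not overlap.

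Pairs with a microglia ligand and an astrocyte receptor included Osm, oncostatin M, which differed by -5.63 ± 0.21 while Osmr differed by 6.19. Il1b differed by -8.20 and Il1r1, its receptor, by 3.41 ± 0.51. Sema4d differed by -2.28 ± 0.19 and Plxnb1, its plexin receptor, by 6.94 ± 0.44. Pdgfb differed by -1.64 ± 0.16 and Pdgfrb, the mural marker, by 6.89. Igf1 differed by only -0.68 ± 0.17 at its brightest probe, which was not called with slide as a random block (adjusted p = 0.163), and by -5.16 to -0.51 over its other 4 probes, while Igf1r was higher in astrocytes by 2.99 ± 0.24.

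Where both genes of a pair were higher in astrocytes, Ptn and Ptprz1 (8.04 and 9.54) and Fgf1 and Fgfr3 (5.43 and 9.06) had the largest differences. Vegfa differed by 4.22 ± 0.29 beside Flt1 at 6.67, an endothelial marker. Both genes were higher in microglia for Tnf and Tnfrsf1b (-9.57 and -4.45), Tgfb1 and Tgfbr1 (-4.48 and -5.15), Il6 and Il6ra (-5.14 and -4.55) and Ccl2 and Ccr2 (-6.83 and -2.29). Lrp1, a receptor of Apoe, read 12.86 ± 0.30 and 13.28 ± 0.25 in the 2 cell types (-0.42, adjusted p = 0.102) and was called higher in microglia after renormalization (-0.65, adjusted p = 0.00303), while Trem2, a microglial lipid receptor, differed by -8.45 ± 0.34.

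**Figure D4:**
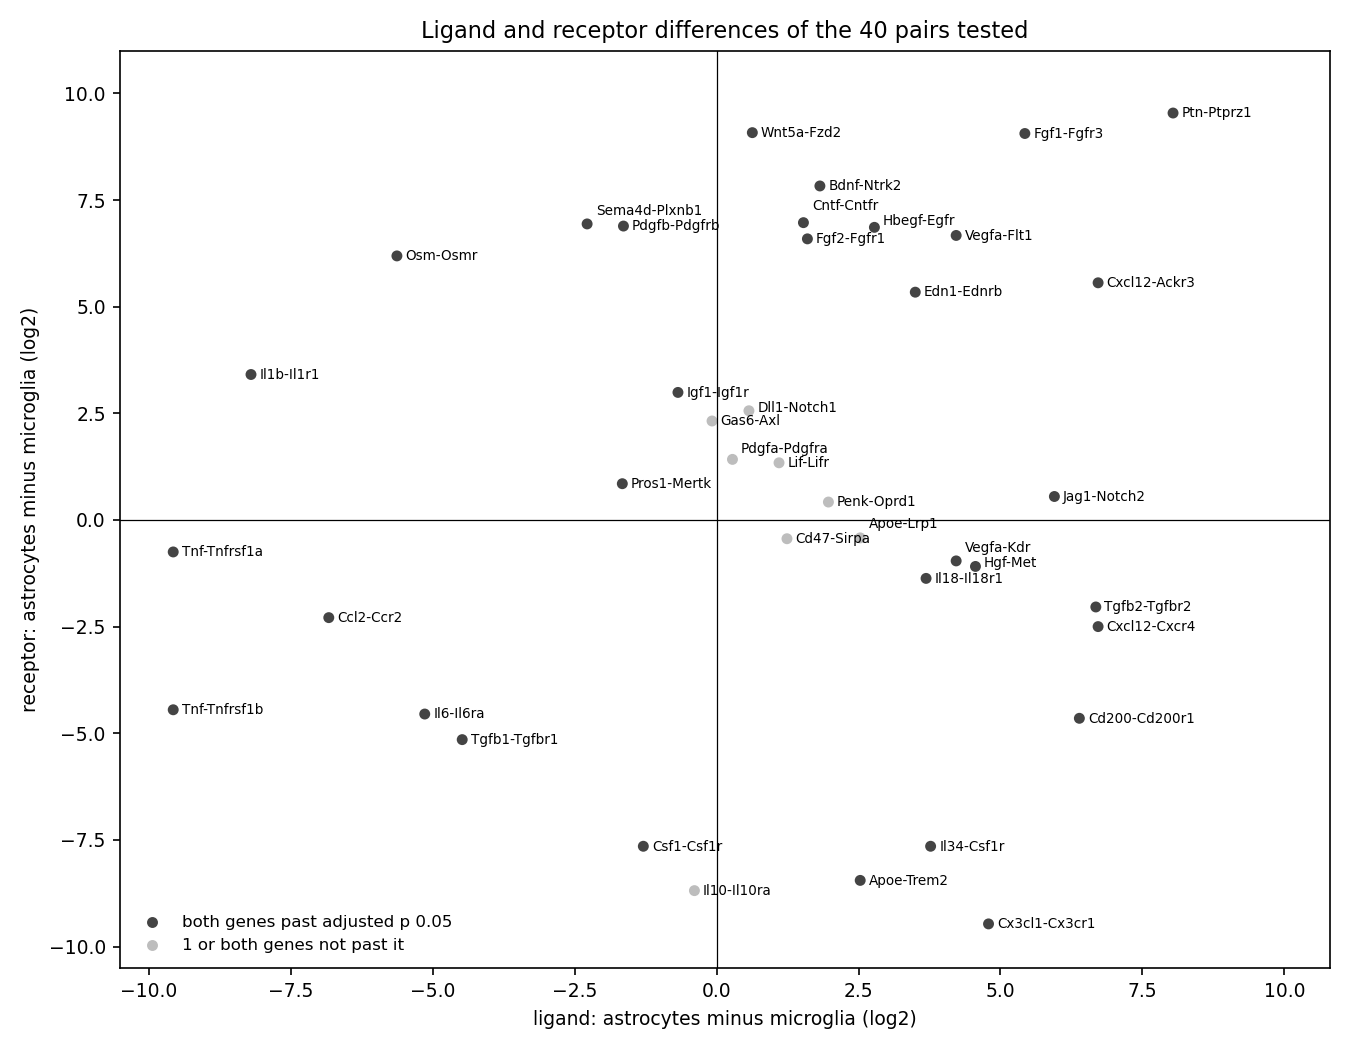
Difference of astrocytes minus microglia on the log2 scale for the ligand gene (horizontal) and the receptor gene (vertical) of the 40 pairs tested; grey points have 1 or both genes not past adjusted p 0.05. Lower right holds the 9 called pairs with an astrocyte ligand and a microglia receptor, such as Cx3cl1 and Cx3cr1, and upper left the 6 with a microglia ligand and an astrocyte receptor, such as Osm and Osmr; with slide as a random block 5 of these 9 and 4 of these 6 are called for both genes.

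Amino acid and neurotransmitter transporters were mostly astrocytic: 16 of 22 were higher in astrocytes and 5 in microglia, with a median difference of 3.49. After Slc7a10 and Slc1a2 the largest were Slc6a11, the GABA transporter GAT3 (8.63 ± 0.44), and Slc25a18, a mitochondrial glutamate carrier (8.26 ± 0.33). The glutamate transporters all had the same direction, with Slc1a3 (GLAST) at 15.65, 15.97, 15.74 and 15.86 in astrocytes and 9.56 to 10.40 in microglia (5.80 ± 0.20) and Slc1a1 at 4.54 ± 0.22. The 5 higher in microglia were Slc7a8 (-7.17 ± 0.18), Slc7a7 (-4.94 ± 0.19), Slc38a1 (-2.14), Slc36a1 (-2.12) and Slc38a2 (-1.03), the last not called with slide as a random block.

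The SLC7 exchangers were thus divided by member. Slc7a10 and Slc7a11, the cystine and glutamate exchanger (5.98 ± 0.40), belonged to astrocytes. Slc7a8, an exchanger of large neutral amino acids, read 5.53, 5.39, 5.40 and 6.03 in astrocytes and 12.33 to 13.10 (median 12.76) in microglia, and Slc7a7, its relative for basic amino acids, 8.00 to 8.55 and 12.81 to 13.53. All 4 genes separated the groups without overlap.

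Sugar, lactate and lipid transporters showed no common direction, with 12 of 27 higher in astrocytes, 13 in microglia and a median of -0.16, which changed sign under 2 alternative settings. The hexose transporters carried the contrast. Slc2a5, a fructose transporter, read 5.70, 4.19, 5.06 and 6.91 in astrocytes and 14.57 to 15.33 (median 14.90) in microglia (-9.45 ± 0.40). Slc2a1 (GLUT1) read 15.47, 15.14, 14.84 and 14.65 in astrocytes and 10.54 to 11.70 in microglia (3.84 ± 0.23), Slc2a4, the insulin-regulated transporter, differed by 6.69 ± 0.30, and Slc2a3 (GLUT3) by -1.12 ± 0.27, a call lost with slide as a random block (adjusted p = 0.157). Slc2a1 is abundant in endothelium, whose markers moved in the same direction.

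Slc13a5, the plasma membrane citrate transporter, differed by 8.14 ± 0.19, the thyroxine and prostaglandin transporter Slco1c1 by 7.55 ± 0.33 and the fatty acid transporter Slc27a1 by 5.01 ± 0.18. Microglia carried more of Slc15a3, an endolysosomal peptide and histidine transporter (-7.17 ± 0.23), the ABC transporter Abca9 (-6.85 ± 0.27), and the monocarboxylate carriers Slc16a6 (-4.98 ± 0.18) and Slc16a3, the lactate exporter MCT4 (-4.18 ± 0.19). Slc16a3 read 6.72 to 6.89 in astrocytes and 10.59 to 11.60 in microglia. Slc16a1 (MCT1) read 6.72 ± 0.22 and 6.89 ± 0.30 and was not called as deposited, but it was called higher in microglia (-0.56) after renormalization.

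Of 36 ion and metal transport and channel genes 19 were higher in astrocytes and 13 in microglia (median 1.15, as against 0.35 over all genes, and -0.07 among the members with all 11 values). Atp1b2, the sodium pump subunit AMOG, read 15.74, 15.90, 16.02 and 15.72 in astrocytes and 6.11 to 8.60 in microglia (8.45 ± 0.41), Atp1b1 differed by 7.24 ± 0.19, and Atp1b3 by -1.07 ± 0.19. Kcnj10, the inward rectifier Kir4.1, differed by 5.13 ± 0.20. Gja1, another gap junction protein, differed by 8.00 ± 0.23 at the probe used, which had values in only 3 microglia samples. All 10 probes of Gja1 were called higher in astrocytes, by 8.00 to 9.06. Microglia carried more of the potassium channel Kcnk6 (-6.72 ± 0.24), Slc11a1, a phagosomal metal transporter (-6.52 ± 0.37), the proton channel Hvcn1 (-6.11 ± 0.16) and the cation channel Trpm2 (-5.20 ± 0.22).

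**Figure D5:**
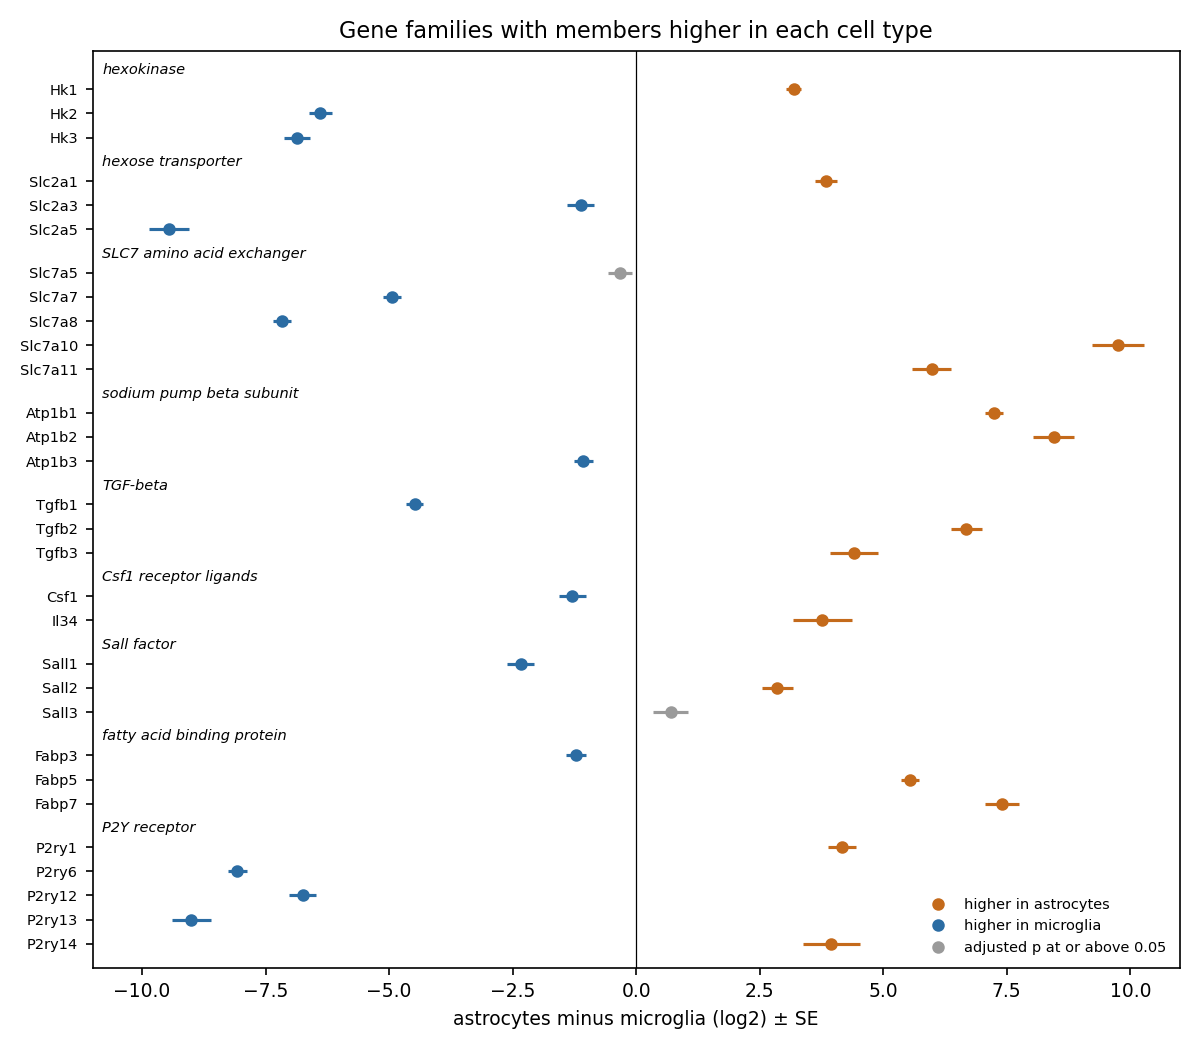
Difference of astrocytes minus microglia on the log2 scale, with its standard error, for the members of the 9 gene families that have members called in each direction; grey points are not called. Hk1 lies on the astrocyte side while Hk2 and Hk3 lie on the microglia side, and the same opposition is seen for Slc2a1 and Slc2a5, Tgfb2 and Tgfb1, and Il34 and Csf1. With slide as a random block Csf1, Fabp3 and Slc2a3 were not called.

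Of 18 families of related genes with members in the table, 9 had members called in both directions, most of them families of transporters, receptors, ligands or factors. The split of the Csf1 receptor ligands rests on Csf1 and that of the fatty acid binding proteins on Fabp3, neither called with slide as a random block. How often families divide over the whole table was not counted. Hexokinase, which traps glucose in the cell, was among the 9. Hk1, the housekeeping brain form, read 14.13, 14.21, 14.14 and 13.85 in astrocytes and 10.68 to 11.03 (median 10.97) in microglia (3.19 ± 0.15). Hk2 read 5.03, 5.06, 5.06 and 5.56 in astrocytes and 11.07 to 12.03 (median 11.65) in microglia (-6.39 ± 0.23), and Hk3, a myeloid form, differed by -6.86 ± 0.26. Among fatty acid binding proteins Fabp7 and Fabp5 were higher in astrocytes by 7.40 ± 0.34 and 5.54 ± 0.19, and Fabp3 differed by -1.22 ± 0.21, which was not called with slide as a random block (adjusted p = 0.0526).

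Glycolysis genes were higher in astrocytes in 15 of 20 cases and in microglia in 3, Hk2, Hk3 and Pfkfb3 (-2.08 ± 0.21), the enzyme that makes the activator of phosphofructokinase. Pdk4, which shuts off pyruvate dehydrogenase, differed by 6.95 ± 0.30, and the phosphofructokinases Pfkm and Pfkp by 5.94 ± 0.17 and 5.34 ± 0.34, while Pfkl read 10.09 ± 0.32 and 9.80 ± 0.15 and was not called. Aldoc, the brain aldolase, read 16.89 to 17.12 in astrocytes and 10.62 to 11.75 in microglia (5.72 ± 0.22), and Aldoa differed by 1.79 ± 0.16. Ldha and Ldhb, the lactate dehydrogenase subunits, differed by 1.43 ± 0.14 and 1.67 ± 0.15 at their brightest probes, beside a list median of 1.86, and the other 2 probes of Ldha gave 0.40 and 0.65.

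Genes of oxidative phosphorylation were higher in astrocytes in 24 of 26 cases and in microglia in 0, with a median of 1.41 (1.19 after renormalization), and only 4 exceeded 4-fold. Those were Cox5a (2.40 ± 0.14), Uqcrfs1 (2.29 ± 0.20), Ndufv1 (2.18 ± 0.15) and Atp5b (2.05 ± 0.17), subunits of complexes IV, III, I and of ATP synthase. Cox5a read 15.10 to 15.49 in astrocytes and 12.69 to 13.19 in microglia.

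Glycogen genes were higher in astrocytes in 14 of 15 cases and in microglia in 0 (median 3.53). After Ppp1r3g, Ppp1r3c, a second targeting subunit, read 12.82, 12.75, 12.51 and 12.89 in astrocytes and 4.16 to 6.07 in microglia (7.62 ± 0.39), and Phkg1, the catalytic subunit of phosphorylase kinase, and Pgm1, phosphoglucomutase, differed by 5.51 ± 0.29 and 4.76 ± 0.15. The phosphorylases Pygm and Pygb, which release glucose units from glycogen, differed by 3.72 ± 0.17 and 3.68 ± 0.25, and the synthase Gys1 by 3.31 ± 0.18.

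Cholesterol and fatty acid synthesis genes were higher in astrocytes in 21 of 22 cases (median 3.69). The elongase Elovl2 differed by 7.74 ± 0.55, the squalene epoxidase Sqle by 7.50 ± 0.29, the desaturase Fads2 by 7.02 ± 0.40, the sterol oxidase Msmo1 by 5.70 ± 0.22 and Hmgcs1, the synthase at the entry to the mevalonate pathway, by 4.25 ± 0.21. Hmgcs1 read 14.52 to 14.64 in astrocytes and 9.78 to 10.70 in microglia. Srebf2, the exception, is the gene whose probes disagree in direction. Of 22 genes of fatty acid oxidation and ketone metabolism 18 were higher in astrocytes, including the acyl-CoA synthetases Acsl6 (8.56 ± 0.42), Acsbg1 (8.35 ± 0.29) and Acsl3 (7.66 ± 0.47) and the carnitine acyltransferase family member Cpt1c (4.94 ± 0.26), and 3 were higher in microglia, Acsl5 (-2.67 ± 0.24), Acads (-1.09) and Acsl4 (-1.09), of which Acsl4 was not called with slide as a random block.

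Of 26 genes of glutamate, serine, glycine and folate metabolism 21 were higher in astrocytes and 3 in microglia (median 2.51). Cbs, cystathionine beta-synthase, read 14.91, 15.40, 15.60 and 15.43 in astrocytes and 7.23 to 7.98 in microglia (7.67 ± 0.21), Gldc of the glycine cleavage system differed by 6.84 ± 0.32 and Prodh, proline dehydrogenase, by 5.96 ± 0.21. Phgdh, Psat1 and Psph, the 3 steps of serine synthesis, differed by 3.22 ± 0.18, 3.46 ± 0.18 and 3.58 ± 0.22. The 3 higher in microglia were the folate enzymes Shmt1 (-1.59 ± 0.21) and Mthfd2 (-1.36 ± 0.24) and Gatm of creatine synthesis (-0.78), which was not called with slide as a random block.

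The NADPH oxidase and pentose phosphate list ran toward microglia, 8 of 13 against 4 (median -0.95). Ncf4 and Ncf1, cytosolic subunits of the phagocyte oxidase, differed by -8.66 ± 0.29 and -7.67 ± 0.29, and the membrane subunits Cyba and Cybb by -3.54 ± 0.17 and -3.18 ± 0.38. The 4 higher in astrocytes were Me1, malic enzyme (6.96 ± 0.37), Idh1 (2.66), Tkt, transketolase (2.16 ± 0.17), and Taldo1 (0.58), which was not called with slide as a random block. Ncf4 read 3.37 to 5.05 in astrocytes and 12.66 to 13.35 in microglia.

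Of 17 eicosanoid genes 10 were higher in microglia and 6 in astrocytes (median -1.91). Alox5 and its activating protein Alox5ap, which start leukotriene synthesis, differed by -8.09 ± 0.31 and -7.78 ± 0.20, the prostaglandin D synthase Hpgds by -8.06 ± 0.37 and Hpgd, which degrades prostaglandins, by -7.52 ± 0.37. Astrocytes carried more of Ephx2, the soluble epoxide hydrolase (8.04 ± 0.48), Pla2g7, which hydrolyses platelet activating factor (6.32 ± 0.29), and Mgll, monoacylglycerol lipase (4.35 ± 0.17). Alox5 read 3.08, 2.62, 1.87 and 3.73 in astrocytes and 10.59 to 11.36 in microglia, and Ephx2 11.65, 12.19, 12.03 and 12.00 and 2.46 to 5.23.

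Lysosomal hydrolases were higher in microglia in 18 of 23 cases and in astrocytes in 2 (median -1.51). Ctss led the list, followed by Man2b1, lysosomal alpha-mannosidase (-4.38 ± 0.17), the protease Ctsc (-4.34 ± 0.22) and Lgmn, legumain (-3.52 ± 0.24). The 2 higher in astrocytes were Smpd1, acid sphingomyelinase, at 15.07 to 15.46 against 12.23 to 12.51 (2.93 ± 0.14), and Gaa, acid alpha-glucosidase, which degrades lysosomal glycogen, at 14.78 to 15.05 against 13.04 to 13.45 (1.61 ± 0.15).

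Antioxidant and monoamine genes were higher in astrocytes in 19 of 23 cases (median 2.06). Maob, monoamine oxidase B, differed by 7.20 ± 0.28, Mt2, a metallothionein, by 6.43 ± 0.20 and the glutathione transferase Gstm5 by 6.26 ± 0.14. Mt2 read 16.83, 16.83, 16.51 and 16.91 in astrocytes and 10.02 to 10.97 in microglia. The 3 higher in microglia were Hmox1, haem oxygenase (-3.79 ± 0.25), Gpx1, glutathione peroxidase (-1.77 ± 0.23), and Txnrd1, thioredoxin reductase (-0.74), which was not called with slide as a random block.

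A set of genes was bright in both cells and close in level. Of 503 genes with both group means above 13, the 95% interval of the difference lay within 1 log2 unit on either side for 197. Fth1, ferritin heavy chain, read 16.09 to 16.32 in astrocytes and 16.42 to 16.91 in microglia, a difference of -0.50 ± 0.15 that was not called with slide as a random block (adjusted p = 0.233). Actg1, an actin, read 16.28, 16.37 and 16.30 in 3 astrocyte samples and 15.77 to 16.87 in microglia (0.06 ± 0.24). Both were chosen after their values were seen.

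Blank values hide a further set. Of the 519 genes not tested, 511 had fewer than 2 values in microglia, and 423 had a value in all 4 astrocyte samples, 4 of them with a mean above 8. Named after their values were seen, 3 of these are Hpdl (9.38 ± 0.29 in astrocytes), Negr1, a neuronal adhesion protein (8.91 ± 0.42), and Bmpr1b, a BMP receptor of the astrocyte receptor list (8.82 ± 0.36), each with a value in 1 microglia sample of 2.70, 2.86 and 3.60. Another probe could be tested for Bmpr1b, which differed by 8.76, and for Negr1, which differed by 3.33 (8.18 against 4.86). Among genes called higher in astrocytes, 1662 had a blank in at least 1 microglia sample, against 126 of those called higher in microglia.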

How the data were processed

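RNA of sorted cells was linearly amplified and labelled with Cy3 or Cy5, per the labels' protocols, with the WT and transgenic samples of a number on 1 array. The values are log2 intensities of single channels as the authors deposited them. Per the submitters' processing notes limma was used, with no version; how background was corrected and columns were normalized is not given in the sources read, and the table has no background flags, so low values may lie at background. Of 43020 probes 33026 named 1 gene, 0 several and 9994 none; the identifiers of 32438 matched RefSeq. Each of 22485 genes, 6138 of them with several probes, was read from the probe with the highest mean over all 22 samples, called its brightest probe here. Blanks were left out of that mean, so a probe with many blanks could be chosen over a brighter one. Astrocyte means were 8.82 at the probe used and 11.95 at the other probe for Bmpr1b, and 10.41 and 11.69 for Cntfr.

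Differences are astrocytes minus microglia from limma 3.58.1 (R 4.3.3), with cell type and dye, on genes with at least 2 values per group, two-sided, with Benjamini-Hochberg adjustment over all genes tested and a threshold of 0.05; more than 4-fold means beyond 2 on the log2 scale. Errors after ± are SE for differences and SD for levels, with n = 4 and n = 7 samples unless blanks are stated. The number of arrays limits the precision. The labels do not say how many animals made a sample, so p-values measure the spread between these samples. List sums are log2 of summed linear intensities. The slide block used duplicateCorrelation (statmod 1.5.0; consensus correlation 0.503); the fit was tested on simulated data. Python 3.11.15 with pandas 2.3.3, numpy 2.4.6, scipy 1.17.1 and matplotlib 3.10.9 made the summaries and figures.

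Members and lists were chosen with earlier results of these data known, and listed genes absent from the table are not analysed here. Named genes include the 12 largest differences each way among called genes without overlap between the groups. They also include up to 4 members of each list each way and up to 4 members called against a cell type list. The pairs, the families and the genes of the sorting antigens could be named too. Siglech, Gfap, Glul, Snap25, Eif2s3y, Hba-a1, S100a8, Sox9, Glis3, Spi1, Runx1, Cebpa, C1qc, Slc38a2, Nampt, Kcnj10, Gja1, Ldha, Ldhb, Cybb, Phgdh, Psat1, Psph, Gys1, Hmgcs1, Cd3e, Pdgfra, Fth1, Actg1, Hpdl and Negr1 were added after their values were seen.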

Additional observations from a re-analysis of the deposited data

Results flagged for a closer look

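Of 526 groups of values of the named genes, 25 had 1 sample that stood apart from the rest of its group by Dixon's test, and chance marks about 1 group in 20. Microglia replicate 4 accounted for 9 of them, each the lowest of its group: Cldn5 7.30, Acta2 6.63, Mef2d 6.65, Slc11a1 12.62, Gldc 5.11, Pygb 7.73, Gys1 7.52, Sqle 5.57 and Cnp 9.81. That sample had the most blank probes, 10975. Its median over the probes measured in all 11 samples was 6.546, against 7.107 to 7.674 in the other microglia samples. The part of this lower level in the 9 values was not tested. Microglia replicate 3 stood apart with the neutrophil and monocyte genes S100a8 at 16.47, the next sample being at 10.07, and S100a9 at 17.72, the next being at 11.65. Among the other microglia samples, Apoe read 13.73 and Hmox1 11.46 in replicate 6, Mt2 10.97 and Fabp3 9.16 in replicate 2, Pdgfb 14.56 in replicate 7 and Syp 9.72 in replicate 1.

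In astrocytes, replicate 1 stood apart with Ppp1r3g at 13.10, Fcgr1 at 4.17 and Ldhb at 15.61. Replicate 2 did so with Eif2s3y at 3.76, Tgfb2 at 11.35 and Vegfa at 13.92. Cd79b read 2.17 in replicate 3 and Hk2 5.56 in replicate 4. For Tgfb2 the nearest other sample was at 11.56 and for Ldhb at 15.85, so these gaps are small on the log2 scale.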

How the results depend on the processing

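Of 264 named genes with a test, 254 passed the threshold, against 52.0% of all genes tested. Of these, 218 kept their direction and call under every alternative other than the exact permutation test. That test gave p under 0.05 for 254, and its smallest possible p with 4 against 7 samples is 0.003. Many named genes were picked for large differences or after their values were seen. The counts of named genes thus follow in part from that choice and do not measure how firm the results are. With slide as a random block 6602 genes were called, 4461 higher in astrocytes and 2141 in microglia, and 31 named genes lost their call. Among genes above the median gene, where fewer were tested, 4936 were higher in astrocytes and 2676 differed more than 4-fold. Renormalization on shared probes gave 5715 genes higher in microglia and 859 genes differing between microglia slides, a count that ran from 0 to 6855 when 1 microglia sample was left out. Leaving out 1 sample moved the count between cell types from 10185 to 11553. Same-numbered samples did not deviate together (correlations from -0.06 to 0.04, and from -0.15 to 0.15 for different numbers). These correlations are between different cell types, so they cannot show whether samples of a number came from the same animals. A replicate block called 8628 of 18156 genes that could be fitted.

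Directions reversed with the mean of all probes for Kdr (3.44), Srebf2 (0.20) and Grm5 (0.41), whose probes disagree, and with blanks set to the lowest value for Apoe (-0.07) and Sparc (1.29), each with blank samples near the top of the scale. The median of the sex-linked genes became 3.62 above the median gene, 0.98 with blanks set to the lowest value and ran from -0.99 to 0.48 when 1 sample was left out (0.48 without microglia replicate 6). That of the sugar, lactate and lipid transporters became 0.03 above the median gene and 0.02 with microglia of slide 1 only, and that of ion and metal transport -0.07 among genes with all 11 values. No background measure is given, so low values have no stated limit, and 28 genes came within 0.5 of the highest value in at least 1 sample.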
